A study of Mus musculus with 46 samples.

Results

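CTCF sites shared by AgRP neurons and cerebellum were defined as CTCF peaks of AgRP nuclei on chromosomes 1-19 and X that overlapped, by at least 1 base, a CTCF peak in both of the cerebellum lists made from 10K and 50K nuclei. Of 50499 AgRP peaks, 16927 (33.5%) met this rule and are called shared sites here. A further 2637 peaks overlapped only 1 of these cerebellum lists and 30935 overlapped neither of the 10K and 50K lists. The deposited -log10 q, which is higher for surer peaks, had an AgRP median of 6.45 at shared sites and 3.12 at peaks in 1 list. At peaks in neither list the median was 0.371 and the third quartile 1.37. Most peaks in neither list were thus weak calls and are not an established class of AgRP-only CTCF sites. The 16927 shared sites lay in 15383 distinct intervals, because 2715 of them were summits that shared an interval with another summit. The rule used the positions of called peaks and no value of signal, sequence, accessibility or annotation. A peak is called from its signal, so presence in all of these lists selects for strong sites. Accessibility can enter through the calls as well. The AgRP list came from fed mice, so sites open only with fasting may be missing from it. The differences from other peaks described below are therefore not independent of the rule.

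CTCF is a zinc finger protein that binds a long, strongly conserved DNA motif and, together with the ring-shaped cohesin complex, anchors chromatin loops and insulates neighboring domains. Many of its sites are occupied in most cell types, while other regulatory elements differ between them. AgRP neurons are hypothalamic neurons of the arcuate nucleus (ARC) that drive feeding, become active with fasting and are restrained by leptin, the satiety hormone made by fat. The cerebellum is a brain region far from the ARC whose nuclei are mostly those of granule neurons.

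CTCF was mapped by CUT&RUN, in which an antibody guides a nuclease to cut out the bound DNA, with 1 library from 3K AgRP nuclei of fed, untreated mice and 1 library for each number of whole cerebellum nuclei (1K, 10K, 50K and 100K by the sample labels; the list of the last is itself named 200K). The cerebellum came from male, fed, untreated mice whose genotype and age the labels do not give. AgRP nuclei came from male NuTRAPAgRP mice of 6 to 11 weeks, which carry AgRP-IRES-Cre and a Cre-dependent tag, so any cell in which that Cre was active is included. ATAC-seq, which measures open chromatin, covered AgRP nuclei of ad libitum fed mice, of mice fasted overnight and given PBS vehicle, and of mice fasted overnight and given leptin, and, in a separate table, tag-positive (AgRP-positive) and tag-negative (AgRP-negative) ARC nuclei. Each of these 5 groups had 2 libraries, each from 4 pooled mice, with 8263234 to 17190963 counts per library. RNA bound to tagged ribosomes of AgRP neurons (TRAP) was counted in 3 fed, 4 fasted and 4 leptin libraries, with 25581041 to 54511107 counts. An IRF3 CUT&RUN list came from AgRP nuclei of the IRF3-2D model, which carries a constitutively active IRF3. With 1 CTCF library per list there is no replicate check of a peak, and the 95% Wilson intervals given for shares of sites cover counting error only.

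The label CTCF was first checked against sequence. The core CCANNAGNNGGC, in which N is any base, was searched on both strands in the 300 bases centered on each AgRP summit (RefSeq GRCm38.p6). It was present at 5515 of 16927 shared sites (32.6%, 31.9 to 33.3), at 25.4% of peaks shared with 1 cerebellum list and at 3.64% of peaks in neither list. Windows of the same length centered on all 123605 ATAC peaks held it in 4.9%, and those without any AgRP CTCF peak in 2.42%. With 1 of the 8 fixed letters allowed to differ, the core was found at 72.7% of shared sites, 58.7% and 21.1% of the other AgRP classes and 29% of all ATAC peaks. This looser search was chosen after seeing the data, and its share in ATAC peaks is the level at which such a match occurs in open chromatin in general. Other motifs went the opposite way. The AP-1 motif TGANTCA, bound by Fos and Jun proteins, was present at 6.81% of shared sites, 11.8% of AgRP peaks in neither cerebellum list and 31.2% of all ATAC peaks. The IRF motif GAAANNGAAA was present at 3.56%, 6.58% and 4.15%.

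Shared sites held 5194 distinct core positions, with 156 of the 256 possible spellings of the core. The most frequent spellings are given because they show which bases CTCF sites of both tissues carried where the search allowed any base. They were CCAGCAGAGGGC (380 positions), CCACCAGGGGGC (355), CCACTAGAGGGC (339), CCACTAGGTGGC (339) and CCACTAGATGGC (288), and the 12 most frequent made up 65.1% of all positions. At position 4 of the core, counted from 1 at its first C, 58.8% had C and 36.5% had G. Position 5 was C in 43.5%, T in 30.6% and A in 19.9%. Position 8 was G in 50.1% and A in 48.1%, and position 9 was G in 53.3% and T in 42.4%. One spelling stood apart. CCAGAAGAGGGC made up 4.35% of cores at shared sites (226 positions) but 33.8% of cores in AgRP peaks in neither cerebellum list (376 of 1111). Its shared sites had a median fold enrichment, the peak caller's ratio of signal to local background, of 5.76 in AgRP nuclei and an ATAC peak at 50%, against 7.75 to 8.97 and 67.2 to 78.8% for the other 11 frequent spellings. A median of 48.3% of the bases around it were repeat-masked in the reference, against 7.33 to 12.2% for the others.

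Cores lay close to the summits. At shared sites the middle of the nearest core was a median of 8 bases from the AgRP summit, and 80.4% were within 25 bases, on the plus strand in 48.8%. In AgRP peaks in neither cerebellum list the median was 35 bases and 45.8% were within 25 bases.

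**Figure D1:**
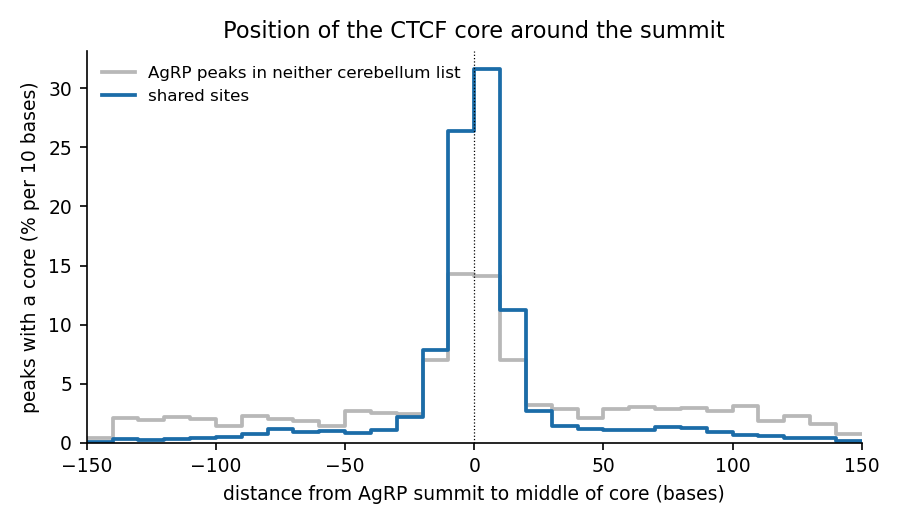
Distance in bases from the AgRP CTCF summit to the middle of the nearest core (x axis) and percent of the peaks with a core that fall in each 10-base step (y axis), for 5515 shared sites (blue) and 1125 AgRP peaks in neither cerebellum list (gray). The blue line is concentrated at the summit (80.4% within 25 bases), while the gray line has a smaller peak (45.8%) over a flat base.

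Sites with their sequences are shown next, as 30 bases around the core or its closest match, read in the direction of the core from RefSeq GRCm38.p6, with the core in capitals. The first 4 hold the exact core and the others differ from it at 1 fixed letter. At Hsd11b2 the opposite strand holds an overlapping match that also differs at 1 fixed letter, so the direction of that match is not settled. The Myc core lay at -137 bases from its summit, near the edge of the searched window, and the H19 match also lay far from its summit. The sites shown are 10 of the 21 shared sites within 10 kb of genes of AgRP neurons or of loci at which CTCF is a textbook regulator.
Agrp intron (chr8:105622557-105622586, plus strand): gagctgtcgCCACCAGGGGGCagcagaact
Peg3 intron (chr7:6727396-6727425, minus strand): ctttgttggCCACAAGGGGGCatctggtat
Hoxa7 intron (chr6:52221800-52221829, minus strand): aagaaaattCCAGGAGATGGCagtgtggct
Near Myc (chr15:61983422-61983451, plus strand): tctctgtggCCAGTAGAGGGCacacttact
Near H19 (chr7:142581903-142581932, minus strand): tcacaaatgCCACTAGGGGGGcaggacaca
Near Igf2 (chr7:142675849-142675878, minus strand): tggaagcgtCCAGCAGAGGTCaccaaaacc
Meg3 intron (chr12:109543031-109543060, minus strand): acatagagaCCGCTAGGGGGCgcgcggccc
Tsix intron (chrX:103441000-103441029, minus strand): gctatttggTCACTAGGTGGCagtataagc
Near Hoxd8 (chr2:74702386-74702415, plus strand): cgcatttggCCACTAGAGAGCgctgttgct
Near Hsd11b2 (chr8:105516093-105516122, minus strand): tcactagcaCCATCTGCTGGCttcctggga

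Of 21 such loci, 15 had a shared site within 10 kb, 21 sites in all, and Npy, Corin, Lepr, Pomc, Grb10 and Hbb-bt had none. Agrp encodes the peptide that names these neurons. The span annotated for it (chr8:105566698-105637393, minus strand), taken with 10 kb on each side, had 3 shared sites among 7 AgRP CTCF peaks. The intron site whose core is shown above (chr8:105622467-105622669) had a fold enrichment of 7.05 in AgRP nuclei, 13.8 in 10K, 23.4 in 50K and 24.8 in 100K cerebellum nuclei, and no peak in the 1K list. Its summit stood at the 55.3 percentile of all shared sites. The annotated start nearest to that summit, 7114 bases away, was that of Mir1966 and not of Agrp. The site at the promoter of Atp6v0d1, a subunit of the proton pump of endosomes and lysosomes, lay just outside the Agrp span. It had no core and values of 6.34, 21.1, 21.9 and 21, with 5.13 in the 1K list. The last, at chr8:105636724-105636972, was 317 bases from the start of Ctcf itself, with 4.5 in AgRP nuclei and 7.61, 8.28 and 8.35 in the cerebellum lists. All 3 overlapped an ATAC peak of AgRP nuclei. A shared site also lay 2648 bases from the start of Hsd11b2, the enzyme that inactivates glucocorticoids, with a fold enrichment of 8.7 in AgRP nuclei and 30.4 in 50K cerebellum nuclei.

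At imprinted loci, where CTCF binding can depend on the parent of origin, the site near H19 (chr7:142581548-142582123) had a fold enrichment of 4.42 in AgRP nuclei, low among shared sites (18 percentile), and 10.6 in 50K cerebellum nuclei. The site near Igf2, which encodes a growth factor, had 6.14 and 19.1 and no ATAC peak in AgRP nuclei. The promoter of Kcnq1ot1, a long non-coding RNA that silences its neighbors, had 7.19 and 19.1. The Meg3 intron site had 9.08 and 10.3, and the Peg3 intron site 5.34 and 5.59. At the X inactivation center, an exonic site in Xist that also lies in Tsix had 7.8 and 16.9, and the Tsix intron site had 6.04 and 15.4, both without an ATAC peak in AgRP nuclei. The clustered protocadherins, whose alternative promoters CTCF helps to select, had 3 shared sites across the Pcdha1 span and 4 across that of Pcdhga1. Of these 7, 6 were weak in AgRP nuclei, with fold enrichments from 2.51 to 4.88, and the Pcdhgb6 promoter had 9.09. The homeobox genes Hoxa7 and Hoxd8 had 1 site each, with 4.84 and 8.36, and Myc had 1 with 4.99.

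Signal was compared by rank, since fold enrichment depends on the depth and background of each library. The median fold enrichment of shared sites was 6.61 in AgRP nuclei (interquartile range 4.87 to 9.12), 12 in 10K nuclei (8.42 to 16.1) and 15.2 in 50K nuclei (10.9 to 19.7). The AgRP medians were 4.71 for peaks shared with 1 list and 2.51 for peaks shared with neither, most of which were weak calls by their -log10 q. Over the 16927 shared sites, which share the genome's mappability and base composition between libraries, the Spearman correlation of AgRP fold enrichment was 0.542 with the 10K list and 0.568 with the 50K list. The cerebellum lists correlated with each other at 0.846. The other cerebellum lists held 97.2% (100K) and 31.1% (1K) of shared sites, against 1.66% and 1.52% of peaks shared with neither list. They come from the same assay on the same tissue, and the 100K and 50K lists ranked shared sites alike (Spearman 0.892). Their overlap is therefore not independent of the rule. The 1K list is short, with 17994 peaks against 54412 for 100K.

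Stronger sites more often held the core and were less often promoters. From the lowest to the highest quintile of AgRP fold enrichment, the core was present at 16.7, 22.6, 32.3, 42.7 and 48.6% of sites, and the match with up to 1 letter different rose from 53.8 to 86.4%. The share at promoters, within 1 kb upstream of a start site, was 44.2, 43.7, 30.3, 16.2 and 9.6%. The intervals of the lowest and highest quintiles were far apart for both (15.5 to 18 against 46.9 to 50.3% for the core). The share with an ATAC peak lay between 77.6 and 84.8% with no order along the quintiles. Quintiles of the 50K cerebellum signal gave the same picture, with the core going from 17.8 to 46.2% and promoters from 42.5 to 11.6%.

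**Figure D2:**
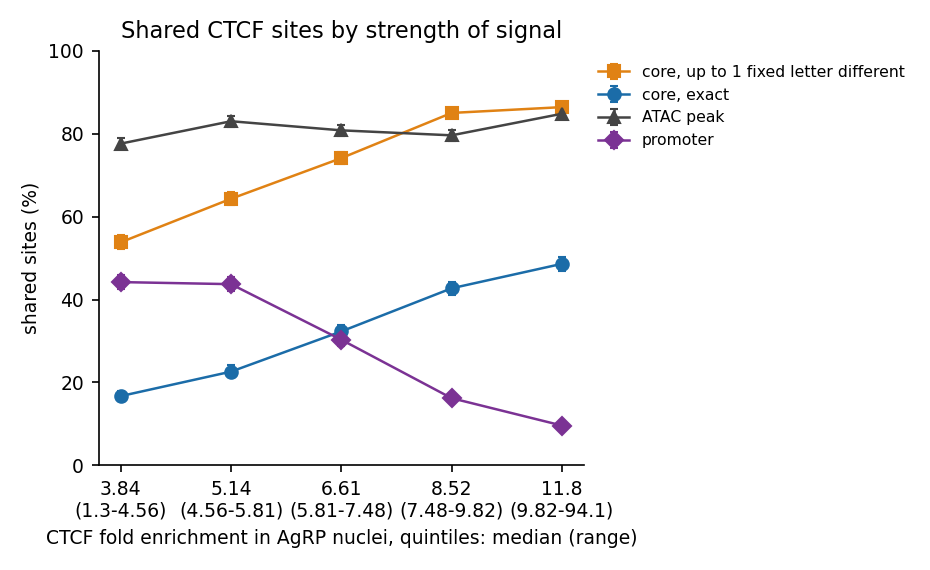
Percent of shared sites (y axis) with the exact core, a match with up to 1 fixed letter different, an AgRP ATAC peak or a promoter position, in quintiles of the AgRP CTCF fold enrichment (x axis, median and range of each quintile); bars are 95% Wilson intervals. The core goes from 16.7 to 48.6% and promoters from 44.2 to 9.6%, while ATAC peaks stay between 77.6 and 84.8%.

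Sites that were in the top quintile of both AgRP and 50K cerebellum signal numbered 1701, and 50.5% of them held the core and 8.64% were promoters. Of the 1630 in the bottom quintile of both, 12.1% held the core and 48.4% were promoters. Opposite ranks were rare. Only 89 sites were in the top quintile in AgRP nuclei and the bottom quintile in cerebellum, with the core at 43.8% (34 to 54.2), and 147 were the reverse, with the core at 32% (25 to 39.9).

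The very highest values belonged to other sequences. The 5 strongest shared sites, led by chr1:12644766-12644853 with a fold enrichment of 94.1, had values from 81.2 to 94.1 in AgRP nuclei and from 68.3 to 97 in 10K nuclei, none held the core or a match with 1 letter different, and 30.7 to 88% of their bases were repeat-masked. Of the 95 sites above 20, 7 held the core (7.37%, 3.61 to 14.4), and their median masked share was 53.7% against 7.33% for the other sites. The strongest site with a core, chr13:110368687-110369020, had 28.7 in AgRP nuclei, 44.5 in 10K, 42.4 in 50K and 10.1 in 1K cerebellum nuclei. It is shown because 4 copies of the core lie in tandem within 200 bases (chr13:110368710-110368909, plus strand, cores in capitals on the strand opposite to their usual reading).
Tandem site: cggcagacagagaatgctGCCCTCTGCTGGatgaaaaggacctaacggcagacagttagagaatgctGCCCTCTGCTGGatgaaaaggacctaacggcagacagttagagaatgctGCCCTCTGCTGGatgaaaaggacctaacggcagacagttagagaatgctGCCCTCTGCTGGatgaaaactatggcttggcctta

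Many summits also came from a few long intervals. There were 9 intervals with more than 10 summits each, holding 246 shared sites, and the first 3.1 Mb of chromosome 9 held 195 shared sites, none with a core or an ATAC peak, at a median fold enrichment of 3.54. Counted as distinct intervals, the autosomes had 4.65 to 9.6 shared sites per Mb, and 78 to 85.4% of them had an ATAC peak. The X chromosome had 1.99 per Mb, with an ATAC peak at 68.5% and a median fold enrichment of 5.02 against 6.32 to 6.98 on the autosomes.

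By position, 33.1% of shared sites were in introns, 31.8% between genes, 28.8% at promoters and 6.33% in exons. Peaks in neither list were at promoters in 3.45%. The core was present at 44.1% of intergenic, 42.8% of intronic and 25.8% of exonic shared sites but at 9.71% (8.91 to 10.6) of promoter sites. Promoter sites were also weaker, with a median fold enrichment of 5.29 and 12.7 in AgRP and 50K cerebellum nuclei. Sites with a core had a median AgRP fold enrichment of 7.96 and sites without 5.97.

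Most shared sites were in open chromatin of AgRP neurons. Of 16927, 13741 (81.2%, 80.6 to 81.8) overlapped an ATAC peak of the fed, fasted and leptin libraries. The share was 58.6% for peaks shared with 1 cerebellum list and 28.5% for peaks shared with neither. Promoter sites had an ATAC peak in 96.1%, exonic sites in 83%, and intronic and intergenic sites in 74.4% each, and in each position the share was higher than in the other AgRP classes, with intervals that did not overlap except for exonic sites against those shared with 1 list.

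**Figure D3:**
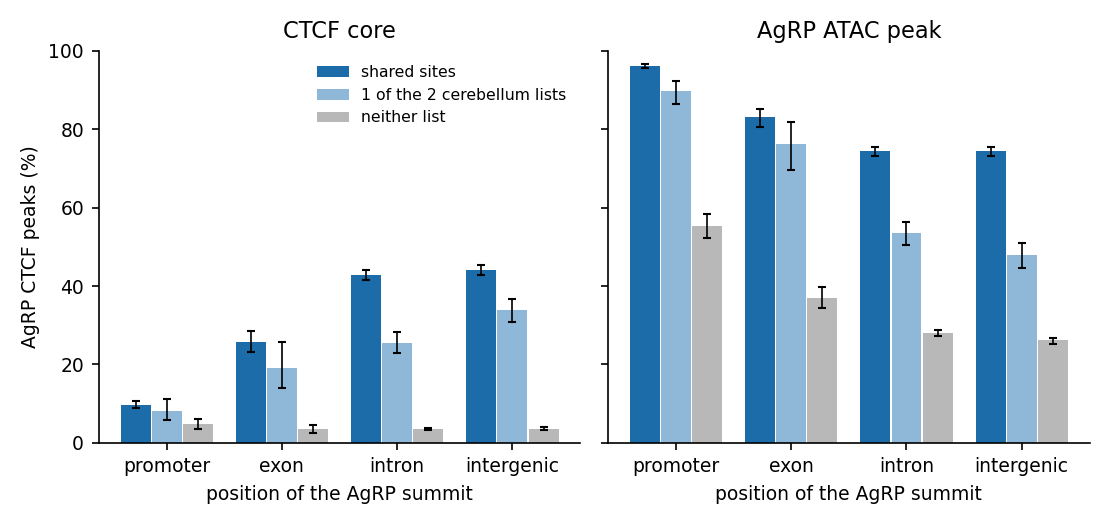
Percent of AgRP CTCF peaks (y axis) that hold the core (left) or overlap an AgRP ATAC peak (right) by position of the summit (x axis), for shared sites (dark blue), peaks with 1 of the 2 cerebellum lists (light blue) and peaks with neither (gray); bars are 95% Wilson intervals. The core is rare at promoters in all 3 classes (9.71% of shared sites) and the ATAC share is highest there (96.1%).

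The 3186 shared sites without an ATAC peak had a median fold enrichment of 6.46, against 6.65 for those with one. They held the core more often (44%, 42.3 to 45.7, against 29.9%), were promoters in 5.93% against 34.1%, had a median GC content of 42.7% against 52.3%, and lay a median of 10106 bases from the nearest start site against 4369. In the 100K list, 94.6% of them had a peak. Sites with a core had an ATAC peak in 74.6% and were promoters in 8.58%, and sites without a core in 84.4% and 38.5%.

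IRF3 peaks of the IRF3-2D model overlapped 38.1% of shared sites, 14.9% of peaks shared with 1 list and 2.77% of peaks shared with neither. The share was 53.7% at promoters and 33.1% between genes. Shared sites with an IRF3 peak held the IRF motif in 3.3%, close to the 3.71% of those without, and had an ATAC peak in 89.8% against 75.9%.

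Whether accessibility at shared sites moved with hunger was asked with the ATAC counts. An ATAC peak counted as opened or closed when its edgeR quasi-likelihood FDR, adjusted over all peaks tested, was below 0.05 and its log2 fold change exceeded 0.5 in size. Of 123605 ATAC peaks, 12327 (9.97%) held a shared site and 12039 of those passed the filter of a mean over 1 CPM (counts scaled to the depth of each library). With fasting, 114 of the 12039 opened (0.947%), against 19% of all peaks tested, and 564 closed (4.68%), against 8.36%. Peaks with no AgRP CTCF peak opened in 22.7% and closed in 8%, and peaks with an AgRP CTCF peak that was not shared opened in 9.73% and closed in 16.2%. The low rate, for sites listed in fed mice, was present at every level of accessibility. From the lowest to the highest quintile of mean CPM, peaks with a shared site opened in 0, 0.157, 0.324, 2.95 and 1%, and peaks with no AgRP CTCF peak in 14.1, 22.1, 27.8, 31.8 and 17.6%. Among peaks with a shared site, promoters opened in 0.17% and closed in 2.96%, others opened in 1.44% and closed in 5.79%, and those with a core in the 300 bases around the middle of the ATAC peak opened in 0.508% and closed in 5.12%. Promoter peaks with no AgRP CTCF peak opened in 5.49% and closed in 4.08%, and other peaks with none in 25.3% and 8.57%. The median log2 fold change was -0.30 at peaks with a shared site and -0.04 over all peaks. At promoters it was -0.23 with a shared site and -0.21 with no AgRP CTCF peak, and elsewhere -0.41 and 0.29. Promoters made up 38.2% of ATAC peaks with a shared site and 13.8% of all ATAC peaks. When libraries were scaled by their size alone, the share of openings among the called peaks with a shared site went from 16.8 to 27.3%, and leaving out fasted replicate 2 brought the closed count to 177 and the opened count to 61. The closed count was 852 without fed replicate 2, 216 without fasted replicate 1, 334 without leptin replicate 1 and 307 without leptin replicate 2, and the opened count 73 without fed replicate 1.

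**Figure D4:**
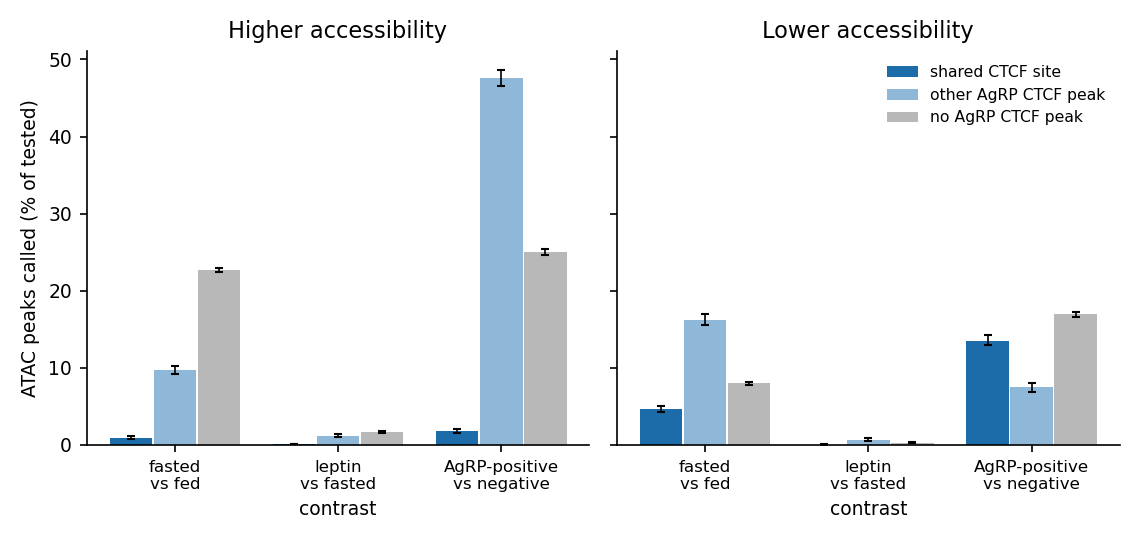
Percent of tested ATAC peaks called higher (left) or lower (right) in each contrast (x axis), for peaks with a shared CTCF site (dark blue), with another AgRP CTCF peak (light blue) and with none (gray); bars are 95% Wilson intervals. Peaks with a shared site were called higher in 0.947% with fasting, 0.108% with leptin and 1.78% in AgRP-positive nuclei, below both other sets in each contrast.

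Among the opening peaks named by the rule was one at chr1:154461502-154461898, 138093 bases from the start of Gm18727. It had 1.51 and 1.76 CPM in the fed libraries, 7.05 and 8.46 in the fasted and 5.14 and 6.9 in the leptin libraries. Both fasted libraries were above both fed ones, a separation that the rule for naming peaks required (log2 fold change 2.23 ± 0.37, SE, FDR 0.000345, edgeR). Its CTCF fold enrichment was 2.51 and it held no core. Of the closing peaks named by the rule, 1 held a core (chr12:3661194-3661506, CTCF fold enrichment 9.95). It had 4.41 and 3.73 CPM in the fed, 1.03 and 0.568 in the fasted and 0.915 and 1.19 in the leptin libraries (log2 fold change -2.33 ± 0.49, SE, FDR 0.00186, edgeR). Its fed and fasted libraries did not overlap, which the rule also required.

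Leptin, compared with the same fasted libraries, changed few peaks with a shared site. Of 12039, 13 opened (0.108%) against 1.44% of all peaks tested and 5 closed (0.0415%) against 0.305%. These counts depended on single libraries. Without leptin replicate 2 both were 0, without leptin replicate 1 they were 4 and 1, without fasted replicate 1 they were 1 and 0, and without fasted replicate 2 they were 7 and 5. Without fed replicate 1 they were 20 and 17, and without fed replicate 2 they were 20 and 16. With the replicate number as a block they were 20 and 14. The largest falls named by the rule included a peak at chr16:79718121-79718735, 66902 bases from the start of Gm37709. It had 39.3 and 26.7 CPM in the fed, 22.4 and 14.9 in the fasted and 6.34 and 5.55 in the leptin libraries. Both leptin libraries were below all others (log2 fold change against fasted -1.65 ± 0.28, SE, FDR 0.00455, edgeR), but the call was lost without fasted replicate 1 (-1.32), leptin replicate 1 (-1.74) or leptin replicate 2 (-1.55). The same place was among the largest rises in AgRP-positive nuclei. In the table of sorted nuclei its peak, chr16:79718138-79718851, had 21.7 and 23.4 CPM in the AgRP-positive and 1.97 and 2.72 in the AgRP-negative libraries (log2 fold change 3.25 ± 0.28, SE, FDR 8.36e-29, edgeR). It had a weak CTCF peak (fold enrichment 3.31) and no core. A peak 29908 bases from Panx1, a membrane channel gene, at chr9:15015296-15015843 rose from 4.14 and 4.35 CPM in the fasted to 15.2 and 14 in the leptin libraries (log2 fold change 1.78 ± 0.30, SE, FDR 0.00464, edgeR), with 6.42 and 6.65 in the fed libraries. Its call was lost without fasted replicate 1 (1.75), leptin replicate 1 (1.72) or leptin replicate 2 (1.84).

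Few shared sites were more open in AgRP-positive than in AgRP-negative nuclei. Of 67335 peaks counted in both kinds of nuclei, which were sorted from the same pools, 10322 (15.3%) held a shared site and 10318 were tested. Of these, 184 were higher in AgRP-positive nuclei (1.78%), against 24.1% of all peaks tested, and 1397 were lower (13.5%), against 15.3%. AgRP CTCF peaks that were not shared went the other way, with 47.6% higher and 7.48% lower. Both sets were picked by detection in AgRP nuclei, with or without detection in cerebellum. Their opposite directions are therefore not independent of how they were chosen. The median log2 difference, AgRP-positive minus AgRP-negative, was -0.27 at peaks with a shared site and 0 over all peaks. At promoters it was -0.21 with a shared site and -0.2 with no AgRP CTCF peak, and elsewhere -0.36 and 0.33. With scaling by library size alone the medians of peaks with a shared site and of all peaks were -0.11 and 0.16. That scaling moved the share of higher calls among the called peaks with a shared site from 11.6 to 28.7%, and over all peaks from 61.2 to 71.9%. Of 54 tested peaks holding a shared site with a CTCF fold enrichment above 20, 44 were lower in AgRP-positive nuclei, with a median of -0.74. Shared sites above 20 were mostly repeat-rich, with a median masked share of 53.7% and the core at 7.37%. They do not stand for shared sites with a core.

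Markers of other cells moved with the same contrast. ATAC counts within 1 kb of the start were higher in both AgRP-positive than in both AgRP-negative libraries at 3 of 3 AgRP markers (Agrp, Npy and Corin, 180 and 184 against 88.6 and 88.7 CPM summed). Most of this sum was Agrp, with 140 and 146 against 80.9 and 83.9 CPM in 2 peaks. An annotated start of Agrp (chr8:105637393) lies close to that of Ctcf (chr8:105636568), so its counts may include the Ctcf promoter. Npy had 26.9 and 23.8 against 3.8 and 2.83 CPM. Of 15 markers of POMC and glutamatergic neurons and glia, 9 had a peak, 5 were lower in AgRP-positive nuclei (Slc17a6, Olig1, Olig2, Sox2 and Sox9) and 3 were higher (Pomc, Mbp and Aqp4). The oligodendrocyte markers summed to 46.4 and 48.9 CPM in AgRP-positive and 62.8 and 53.5 in AgRP-negative libraries, and those of astrocytes and tanycytes to 26.3 and 29.8 against 55 and 58.5. Glutamatergic Slc17a6 had 2.87 and 3.22 against 14.4 and 12.9, and the POMC neuron markers 20.4 and 14.3 against 11 and 18.1. No peak was listed at Mog, Gfap, Rax or the 3 microglia markers. Their part in the difference at shared sites was not tested.

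As a share of each library, peaks with a shared site held 29.8 and 31.2% of the ATAC counts in the fed libraries, 26.3 and 27.3% in the fasted and 25.5 and 26.2% in the leptin libraries. The fed libraries were above all fasted and leptin ones, and fasted and leptin did not overlap by a small margin. In the sorted table the shares were 37.8 and 37.5% in AgRP-positive and 44 and 44.2% in AgRP-negative nuclei, with no overlap. Most of these counts were at promoters, with 23.3 and 25.2% in fed, 21.1 and 21.9% in fasted and 20.5 and 20.9% in leptin libraries. At promoter peaks with no AgRP CTCF peak the fed libraries held 22.7 and 24.7%. The fasted held 20.8 and 21.8% and the leptin libraries 20.4 and 21.7%. A fall at promoters was thus not particular to shared sites. Over all peaks with no AgRP CTCF peak the share rose, from 54.7 and 55.2% in fed to 59.4 and 59.7% in fasted libraries. With 2 libraries per group, the smallest two-sided p an exact permutation test can give is 0.333, so these shares are given as values with no test.

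**Figure D5:**
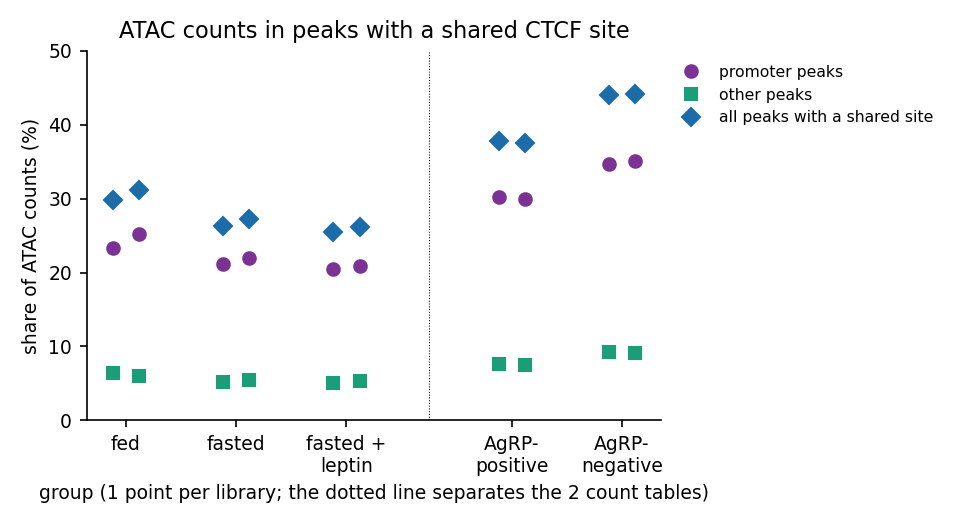
Share of each library's ATAC counts (y axis, %) in peaks with a shared CTCF site, by group (x axis), 1 point per library, for all such peaks (blue diamonds), those at promoters (purple circles) and the others (green squares). Fed libraries (29.8 and 31.2%) lie above fasted (26.3 and 27.3%) and AgRP-negative (44 and 44.2%) above AgRP-positive (37.8 and 37.5%). Promoter peaks with no AgRP CTCF peak, not drawn, held 22.7 and 24.7% in fed and 20.8 and 21.8% in fasted libraries.

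The factors that act at these sites were followed in TRAP RNA, in which fewer cells and less RNA per cell cannot be told apart. Of 23 genes of CTCF, cohesin and their partners, 20 were tested and none was called with fasting or with leptin by edgeR or DESeq2, with 2 at an unadjusted p under 0.05 in each contrast by edgeR. Over all genes, 2.81% rose and 1.08% fell with fasting and 1.19% and 0.604% with leptin. Ctcf had 55, 54.3 and 54.9 CPM in the fed, 59.4, 57.1, 54.5 and 50.5 in the fasted and 67.1, 59.6, 52.5 and 53 in the leptin libraries, and the 3 groups overlapped. Rad21, the cohesin subunit whose cleavage opens the ring, had 129, 144 and 126 CPM in fed, 149, 147, 166 and 156 in fasted and 121, 129, 131 and 116 in leptin libraries. All fasted libraries were above all others, but neither contrast passed the test (log2 fold change 0.21 ± 0.08, SE, FDR 0.182 with fasting and -0.31 ± 0.08, SE, FDR 0.0684 with leptin, edgeR). The cohesin regulator Pds5a had 43.3 ± 1.91 CPM in fed (SD, n = 3) and 50.2 ± 1.32 in fasted libraries (SD, n = 4), and its fasting FDR was 0.0708 (edgeR). These FDRs came from the fit on state alone, which ignores the replicate number, and FDRs of single genes with the replicate number as a block are not given here. With that block none of the list was called, while over all genes 591 rose and 346 fell with fasting, against 376 and 145 without it. Log2 fold changes over the 20 genes lay between -0.19 and 0.23 with fasting and between -0.31 and 0.25 with leptin. The germline paralog Ctcfl and the cell division genes Esco2 and Cdca5 were at or near 0 and were not tested. A shared site lay at the promoter of 13 of the 23 genes, among them Smc1a, Smc3, Stag1 and Stag2.

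Genes with a shared site at their promoter numbered 5013, of which 4073 were in the count table and 3706 were tested. With fasting, 100 rose (2.7%) and 20 fell (0.54%), beside 2.81% and 1.08% of all genes tested. With leptin, 33 rose (0.89%) and 14 fell (0.378%), beside 1.19% and 0.604%. The leptin total of 47 became 77 with the replicate number as a block. The fasting total of 120 was 54 without fasted replicate 3, 58 without fed replicate 4, 60 without fed replicate 1 and 74 without fasted replicate 1. Scaling by library size alone gave 42 with fasting (32 up and 10 down) and 28 with leptin. Their median log2 fold change was 0.05 with fasting and -0.01 with leptin, beside 0.02 and -0.01 over all genes tested.

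At the edge of the rule, 102 shared sites overlapped a cerebellum peak by fewer than 50 bases, with a median fold enrichment of 3.31, the core at 15.7% and an ATAC peak at 64.7%. The 84 peaks just outside it, within 50 bases of a peak of each list, had 3.29, 5.95% and 61.9%.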

How the data were processed

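Sites were defined on the deposited CTCF CUT&RUN peak lists, which hold the fold enrichment (a ratio) of each summit as the authors' peak caller gave it, with the deposited -log10 p and -log10 q. Call settings and control are not given in the sources used here, and the lists were read as mm10, the build in the submitters' processing notes. The IRF3 list, assigned as the only deposited SEACR list although its name lacks IRF3, holds the signal per peak, of which only positions were used. ATAC values are raw counts per merged peak that the authors obtained with Bowtie2, MACS2 and BEDtools, and RNA values raw counts per gene that the authors obtained with HISAT2 and featureCounts. The authors' log2 CPM tables, POMC and whole arcuate RNA and the IgG sample were not used here.

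Peaks were placed on GENCODE vM21 (promoter: under 1 kb upstream of a start, then exon, intron, intergenic), and motifs were searched in RefSeq GRCm38.p6. Counts were fitted in R 4.3.3 with edgeR 4.0.16 (TMM, mean over 1 CPM, state as the single term, all 3 states in 1 model, Benjamini-Hochberg), with DESeq2 1.42.0, other scalings, no filter, a replicate block and each replicate left out as alternatives. Fits were tested on simulated data. The study describes the RNA and ATAC libraries of the 3 states as independent biological replicates of pooled ARCs. Same-numbered RNA libraries deviated together in all 10 pairs (correlation 0.536 to 0.814), so they are related in a way that the labels do not explain. AgRP-positive and AgRP-negative nuclei were sorted from the same pools. Named sites were the 5 highest in AgRP signal, also among sites with a core, and those within 10 kb of fixed loci, and named ATAC peaks came from the 3 largest non-overlapping rises and falls per contrast. The choice among sites with a core was added after seeing the data. Sites, lists and loci were chosen with earlier results of these data known. One named ATAC peak is not reported here.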

Additional observations from a re-analysis of the deposited data

Results flagged for a closer look

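Among the 40 groups of 4 TRAP libraries examined for the CTCF and cohesin genes, 3 (7.5%) had a library far from the other 3, where chance gives about 1 in 20. Stag2, a cohesin subunit, had 80.6 CPM in 1 fasted library and 74.8 to 75.5 in the others. Top2b, a topoisomerase found with CTCF and cohesin at loop anchors, had 112 CPM in 1 fasted library against 136 to 139, and 113 CPM in 1 leptin library against 138 to 143. Both low Top2b libraries were replicate 4, and fed replicate 4 was also the lowest of its group (102 against 114 and 120 CPM). Since same-numbered RNA libraries deviated together, these values are not independent of each other.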

How the results depend on the processing

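Requiring a peak in all 4 cerebellum lists left 5238 shared sites, and a -log10 q of 10 or more in the AgRP, 10K and 50K lists left 4922, while the other definitions tried stayed within 1.5 times. The ATAC share was 74.2% with at least 50% of the CTCF peak covered, 78.5% with the summit inside, and 68.9% with the peaks of the sorted nuclei. The core share was 27.8% in 100 bases, 43% with the looser core CCNNNAGNNGGC, 45.8% at a -log10 q of 10 or more and, added after seeing the data, 72.7% with 1 letter different and 33.6% over distinct intervals. The promoter share was 32% with 2 kb and 26% with protein-coding starts. For ATAC peaks with a shared site, scaling by library size alone gave 372 closed with fasting and 682 lower in AgRP-positive nuclei, and DESeq2 gave 105 higher and 898 lower. Leaving out each library in turn gave 61 to 149 opened and 177 to 852 closed with fasting, 0 to 20 opened and 0 to 17 closed with leptin, and 128 to 159 higher and 937 to 1136 lower in AgRP-positive nuclei. A lone library was then assumed to vary like the other groups. For genes with a shared site at the promoter, library size alone gave 42 with fasting and 28 with leptin, and leaving out each library gave 54 to 144 and 35 to 57. The cause of these changes was not tested.

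With the replicate block, 20 ATAC peaks with a shared site opened and 14 closed with leptin, 139 and 735 with fasting, and 190 and 1542 were higher and lower in AgRP-positive nuclei, while genes with a shared site at the promoter numbered 180 with fasting and 77 with leptin. Same-numbered ATAC libraries of the 3 states correlated at -0.00228 to 0.165 and share only a number, while AgRP-positive and AgRP-negative nuclei came from the same pools (0.0988). Of 182 alternatives for the named ATAC peaks, 161 kept the call, 21 lost significance, most of them at peaks named for leptin, and none reversed. Limits are the single CTCF library per list, the differing depth of the lists, and 2 ATAC libraries per group.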

Other observations

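Each shared site with an exact core was paired with the next such site along its chromosome, passing over shared sites without one. The paired cores lay a median of 197 kb apart. Of 5174 such pairs, 26.7% pointed towards each other (25.5 to 27.9), 26.6% away from each other (25.4 to 27.8) and 46.7% the same way. Between 20 and 500 kb apart, 27.1% of 3397 pairs pointed towards and 27.1% away from each other.

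Of 5166 tested ATAC peaks with a shared site and an IRF3 peak, 38 opened (0.736%) and 258 closed (4.99%) with fasting. Of 6873 with a shared site and no IRF3 peak, 76 opened (1.11%) and 306 closed (4.45%), and of all peaks tested 19% opened and 8.36% closed. With leptin, 5 opened (0.0968%) and 4 closed (0.0774%) with an IRF3 peak, and 8 opened (0.116%) and 1 closed (0.0145%) without. Of all peaks tested, 1.44% opened and 0.305% closed with leptin. The leptin totals that these small counts divide depended on single libraries, as given above.

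Of the 18 ATAC peaks named by the rule, 2 held a core and none was at a promoter. Their CTCF fold enrichment ranged from 2.35 to 16.4, the last at chr16:6479974-6480805 in the Rbfox1 region, which had 3.02 and 4.02 CPM in the fed, 1.29 and 1.14 in the fasted and 4.01 and 4.24 in the leptin libraries. Its leptin call was lost when any 1 of the fasted or leptin libraries was left out, at log2 fold changes of 1.67 to 1.86.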
